A study of Mus musculus with 8 samples.

Results

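The genes described here are 40 members of the NF-κB pathway and its targets, chosen by symbol from the 55414 Ensembl gene IDs of the count table, and all 40 symbols matched an ID through GENCODE M39. They were measured by RNA-seq in Paneth cells sorted from the small intestine of C57BL/6J mice, in which 4 mice drank Milli-Q water and 4 drank water with 25 mM ZnSO4 for 7 days. Each group had 4 libraries, and both groups carried the C57BL/6J genotype with no other allele named. The study's methods describe sorted cells of individual mice, while the legend of its sorting workflow speaks of pooling, and the labels do not settle this for single libraries. The labels give neither the age of the mice nor the part of the small intestine, and they do not say whether mice shared a cage. The question put to these genes was how strongly each was expressed in Paneth cells and how its level compared between zinc and water.

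NF-κB is a family of dimeric transcription factors built from the Rel subunits RelA, RelB, c-Rel, p50 and p52. In resting cells the dimers are held in the cytoplasm by IκB proteins, and signals from TNF receptors, IL-1 receptors, Toll-like receptors and NOD proteins lead to the phosphorylation and breakdown of these inhibitors. The freed dimers bind κB sites in DNA and switch on chemokines, cytokines and adhesion molecules, together with their own inhibitors such as IκBα and A20. In the intestinal epithelium the pathway is known for its part in the response to microbes and in the survival of epithelial cells.

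The libraries held 20760764 to 24117111 counts. Values are given as CPM, the counts divided by the size of their library, with sizes set by TMM, a method that corrects totals for a few very abundant genes, and 1 count was worth 0.0382 to 0.0625 CPM. The scaling mattered because the 12 listed Paneth cell markers, among them Lyz1 and Defa24, took 43.7 to 56.9% of the counts. Most markers of blood cells were at or near 0: all 6 neutrophil markers had 0 counts in every library, 6 of 9 T cell markers had 0 counts, and the 5 general leukocyte markers summed to 0.0430 to 1.26 CPM with water and to 0 to 0.118 CPM with zinc. Of these, Ptprc (CD45) had 32 counts in water replicate 4 and 0 to 4 counts in each of the other 7 libraries. Of the 10 myeloid markers, Fcer1g and Tyrobp had 0 counts, while Lyz2, at 13.0 to 34.5 CPM, made up most of the sum of 15.01 to 38.0 CPM with water and 14.2 to 25.2 CPM with zinc. How any reads matching both Lyz2 and Lyz1, which stood at 119900 to 225300 CPM, were counted is not stated in the sources used here. C1qa, a macrophage marker, had 42, 23, 13 and 0 counts with water and 3, 0, 0 and 0 counts with zinc, while C1qb and C1qc had 0 to 1 counts per library. The 8 B and plasma cell markers summed to 0.115 to 0.558 CPM with water and 0.338 to 0.931 CPM with zinc, and the 8 endothelial and stromal markers to 0 to 0.625 CPM with water and 0 with zinc. Listed markers of enterocytes (348 to 455 CPM with water, 375 to 436 CPM with zinc) and goblet cells (3758 to 5244 CPM with water, 4342 to 7607 CPM with zinc) were present. The ranges of their sums overlapped between the groups, as did those of tuft cells (14.8 to 128 and 18.2 to 88.3 CPM) and enteroendocrine cells (42.5 to 109 and 45.0 to 69.9 CPM). Anpep, at 204.5 to 353 CPM, made up most of the enterocyte sums. Sis ran from 1.63 to 2.86 CPM with water and stood at 2.38, 22.8, 13.0 and 7.80 CPM with zinc. Of 7 tested enterocyte markers, 5 had a log2 fold change above 0 and 2 below it, with none past the threshold. The 5 stem cell markers summed to 4389 to 5751 CPM with water and 3057 to 4482 CPM with zinc, and 4 of the 5 had a log2 fold change below 0, with none past the threshold. Olfm4, at 4082 to 5484 CPM with water and 2799 to 4150 CPM with zinc, made up most of these sums. Lgr5 averaged 76.7 CPM with water and 75.5 CPM with zinc, with a log2 fold change of -0.02. The part of the stem cell, enterocyte and leukocyte markers in the values below was not tested. In these sorted bulk samples fewer cells of a type and less RNA per cell cannot be told apart.

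The sequence in front of the genes was read first, since κB sites are what the pathway acts through. The κB consensus, a motif of 10 bases, was searched on both strands in the 500 bases before the start of each gene's canonical transcript (GENCODE M39, GRCm39). It was found for 19 of the 40 members, or 47.5%, against 12.3% of the 21770 promoters of protein coding genes and 13.5% of the 11976 promoters of genes tested below. The stricter form GGGANNTTCC, every match of which also matches the consensus, was found for 6 of the 40 members, or 15%, against 2.21% of protein coding genes. Such a match is a description of the sequence and not a binding site, and many members are known as targets because of such sites. A few matches are shown with 8 bases on each side, the matching 10 bases in capitals and each on the strand on which it was found, for the members whose values are described most closely below and for a pair of chemokines that received no counts.
Nfkbia: caggcgcgGGGAATTTCCaagccagt
Tnfaip3: ctcacgcgGGGACACCCCggggcggg
Icam1: ccttatggGGGGGTTTCCtctccttc
Ccl20: tctcacccGGGGTTTTCCcccattga
Lcn2: ggaccagaGGGACATTCCcagggctt
Cxcl1: tgtactccGGGAATTTCCctggcccg
Cxcl2: tgagctcaGGGAATTTCCctggtccc

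The Nfkbia match shown lies at chr12:55539444-55539469 on the plus strand, while the gene lies on the minus strand, and it lies 20 bases before the canonical transcript start. The Icam1 match at chr9:20926421-20926446 and the Ccl20 match at chr1:83094399-83094424 lie on the minus strand, 234 and 71 bases before the start. The coordinates cover the 26 bases printed, and distances run from the transcript start to the nearer end of the 10 matching bases. The Tnfaip3 match lies at chr10:18891266-18891291 on the minus strand and the Lcn2 match at chr2:32277994-32278019 on the plus strand. Cxcl1 (chr5:91039025-91039050) and Cxcl2 (chr5:91051653-91051678) carry the same 10 bases as Nfkbia, GGGAATTTCC, on the plus strand. Nfkbiz, Birc3, Traf2, Cxcl16, Rela, Nfkb1 and Tnf had no match in this window. This says only that these letters are not in the 500 bases searched.

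Of the 40 members, 35 had at least 1 count and 27 passed the low-count filter of the test. Cxcl1, Cxcl2 and Cxcl5, which encode chemokines that attract neutrophils, Il1b, which encodes the cytokine IL-1β, and Tnip3, which encodes a partner of A20, had 0 counts in all 8 libraries. Where no count was found, 3 counts remain possible, which is a limit of 0.115 to 0.188 CPM in single libraries and covers counting error only. The other 8 untested members were Ltb, Tnf, Traf1, Lcn2, Saa1, Saa2, Saa3 and Cd40.

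Levels of different genes are compared per kilobase of merged exons. Nfkbia, which encodes the inhibitor IκBα, stood highest at a mean of 12.6 CPM per kilobase over the 8 libraries, and ranked 1140 of the 11988 tested genes. It was followed by Rela (7.31), Nfkbib (5.29), Bcl3 (2.99), Sod2 (2.95) and Relb (2.81), all in CPM per kilobase. Nfkbib overlaps Sirt2 on the other strand, which had 383 to 645 counts. How the strand was treated in counting is not stated, so the level of Nfkbib carries this limit. Among the Rel subunits, Rela, which encodes RelA, ran from 6.14 to 9.11 CPM per kilobase and was above the other 4 in every library. Relb (2.28 to 3.81), Nfkb2 (1.91 to 3.15), which encodes p52, and Nfkb1 (1.96 to 2.79), which encodes p50, overlapped in their levels per kilobase and are not ordered by these data. Rel, which encodes c-Rel, was below them at 0.115 to 0.364 CPM per kilobase. With the length of the canonical transcript in place of the merged exons, a choice made after the data were seen, Nfkbia (15.5) stayed first, Nfkbib (9.11) stood above Rela (8.80), and Nfkb1 (6.51) stood above Relb (4.20) in CPM per kilobase. The order of neighbours therefore rests on the length used.

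**Figure D1:**
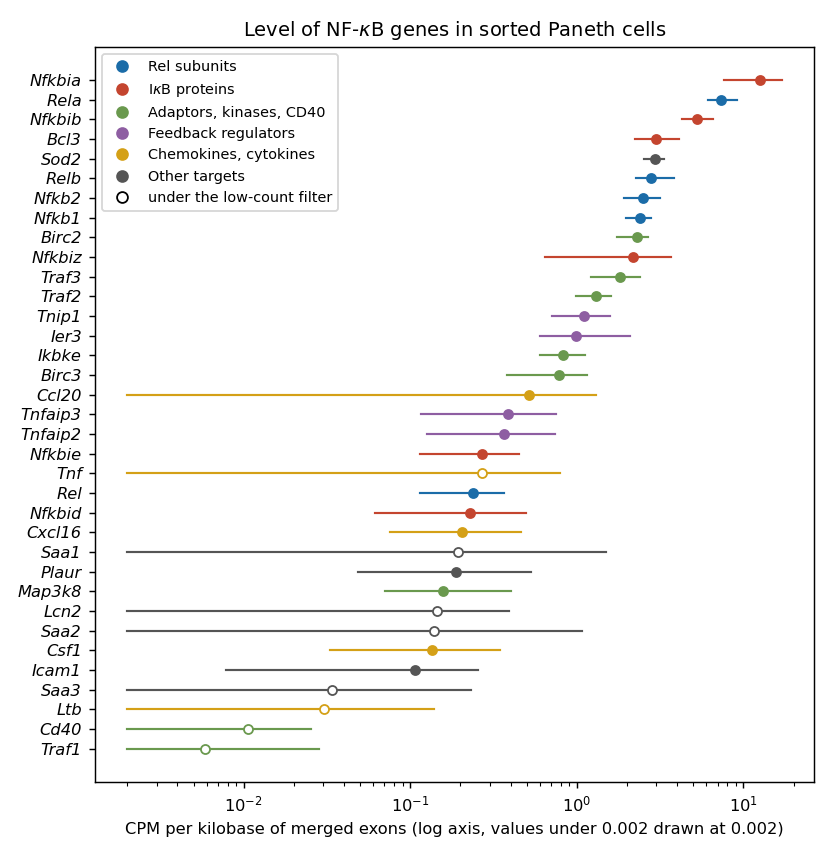
Level of the 35 members with at least 1 count, in CPM per kilobase of merged exons on a log axis. Points are means over 8 libraries, lines run from the lowest to the highest library, and open points are the 8 members under the low-count filter. Values under 0.002 are drawn at 0.002. Nfkbia and Rela stand highest, at means of 12.6 and 7.31, and the means of the chemokine and cytokine genes lie below 1.

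Zinc was then compared with water. The list was drawn up with results of this comparison known, so the values of the members below are a description and the counts are not support for a change of the list. By mean CPM, 32 of the 35 detected members were lower with zinc and 3 were higher (Nfkbib, Birc2 and Plaur, of which Nfkbib and Plaur turned sign in the fit when a library was left out). Of the 27 tested, 24 had a log2 fold change below 0, where 48.1% of all 11988 tested genes had one. The median was -0.39 against 0.01 over all tested genes, which the TMM scaling holds near 0. No member passed an adjusted p of 0.05 in edgeR's quasi-likelihood test over all genes (0.0834% of tested genes did, 0.025% higher and 0.0584% lower), while 13 of the 27 had an unadjusted p below 0.05, all of them lower with zinc (4.65% of tested genes, 2.81% lower and 1.84% higher). DESeq2 put 1 member past the threshold and limma-voom 0. The 13 became 7 without water replicate 4, where 641 of all 12123 tested genes had such a p, and 7 when libraries were scaled by their totals alone, where 226 of 11988 had one. Of the 27, 7 had fewer than 4 zinc libraries over the filter's 0.461 CPM, among them Icam1 and Ccl20 with none, so these passed the filter mainly through the water group or through a few libraries.

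**Figure D2:**
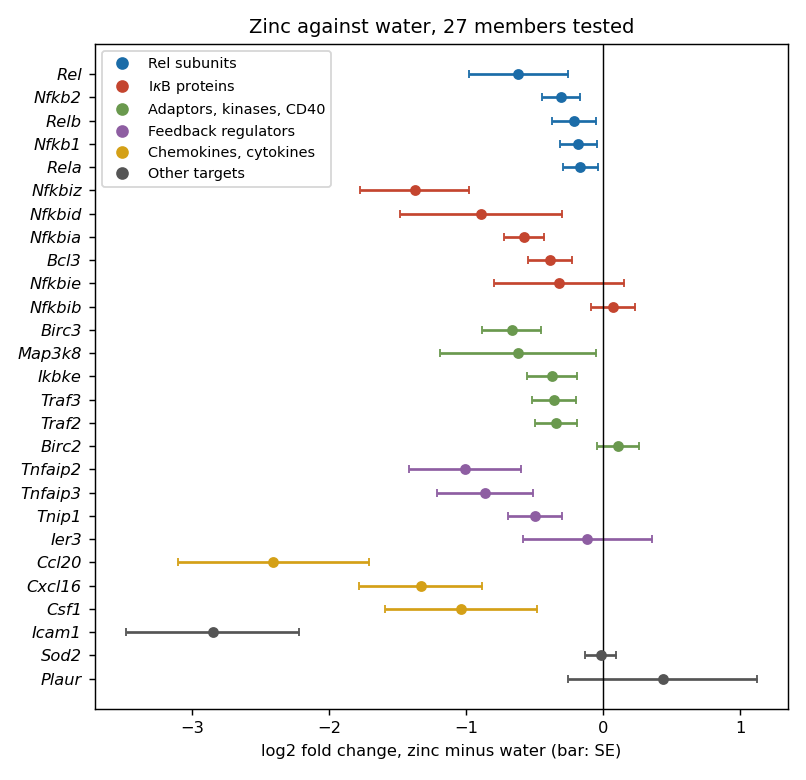
Log2 fold change, zinc minus water, of the 27 tested members from edgeR, grouped by role, with bars for the standard error. 24 points lie below 0, from -2.85 for Icam1 to -0.02 for Sod2, and 3 lie above it.

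The spread over libraries can be read library by library. Summed over the 40 members, the level was 293, 306, 309.5 and 317 CPM in water replicates 1 to 4 and 245, 245, 243 and 239.8 CPM in zinc replicates 1 to 4. On this TMM scale all 4 zinc sums thus lay below all 4 water sums. As a share of all counts the groups overlapped, at 0.0224, 0.0311, 0.0330 and 0.0384% with water and 0.0190, 0.0245, 0.0255 and 0.0294% with zinc. For the 27 tested members, the median deviation from their own mean over 8 libraries was taken in log2 of CPM + 0.5. It was 0.18, 0.11, 0.22 and 0.22 in the water libraries and -0.21, -0.16, -0.26 and -0.08 in the zinc libraries. The same median over all tested genes lay between 0.00 and 0.01, which the TMM scaling holds near 0. The list was drawn up with results of this comparison known, so the parting of the groups in these sums and medians is a description. Water replicate 3 had the most members above their own mean, with 6 of 27 below it, and zinc replicate 4 was the zinc library closest to the water group, with 16 of 27 below. Single members varied more between libraries of 1 group than the typical gene, with a median within-group SD of 0.33 against 0.23 over all tested genes in log2 of CPM + 0.5, at a median level of 8.60 against 12.6 CPM. Immediate early genes such as Fos and Egr1, which respond within minutes to handling of cells, summed to 105 to 234 CPM with water and 91.6 to 177 CPM with zinc over 12 listed genes, and water replicate 3 was the highest. Of the 11 tested, 8 had a log2 fold change below 0 and 3 above it, with a median of -0.28. In edgeR 2 had an unadjusted p below 0.05, both lower with zinc, where 4.65% of all tested genes had one, and 0 passed the threshold. The part of the immediate early genes in the values of the members was not tested.

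**Figure D3:**
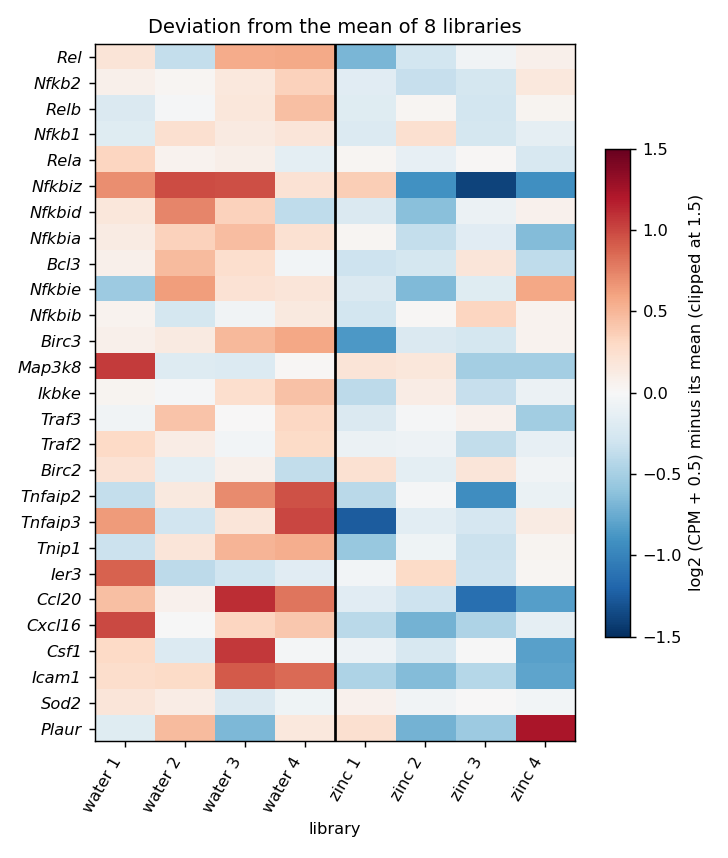
Deviation of each of the 27 tested members from its mean over the 8 libraries, in log2 of CPM + 0.5, clipped at 1.5 for the colours. Members are ordered by role and the line parts water from zinc, with most cells above 0 (red) on the water side and below 0 (blue) on the zinc side, and Plaur in zinc replicate 4 and Nfkbiz in zinc replicate 1 among the exceptions.

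The IκB proteins hold the dimers back or, for the nuclear members IκBζ (Nfkbiz), IκBNS (Nfkbid) and Bcl-3 (Bcl3), act with them on DNA. Nfkbia (ENSMUSG00000021025, GRCm39 chromosome 12, 55535332 to 55539432, minus strand, 7 merged exons) stood at 25.9, 30.2, 32.9 and 27.8 CPM with water and at 24.1, 18.4, 21.1 and 14.9 CPM with zinc. All 4 zinc libraries were below all 4 water libraries. Groups that did not overlap were found for 2.84% of all tested genes. By library totals alone the Nfkbia groups overlapped, with 414 of 20949548 counts in water replicate 1 and 533 of 24117111 in zinc replicate 3. The log2 fold change of Nfkbia was -0.58, with an SE of 0.15 and an adjusted p of 0.385 in edgeR. Without a low-count filter its edgeR adjusted p was 0.016, and over the other alternatives it ran up to 1.0.

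Nfkbiz (ENSMUSG00000035356, chromosome 16, 55631738 to 55659262, minus strand) stood at 17.01, 20.75, 20.7 and 12.0 CPM with water and at 13.4, 5.26, 3.63 and 5.24 CPM with zinc. Zinc replicate 1 lay inside the range of the water group, and the other 3 zinc libraries lay below it. The log2 fold change was -1.38, with an SE of 0.40 and an adjusted p of 0.852 in edgeR. Without zinc replicate 1 it was -1.91, with an edgeR adjusted p of 0.00297, and scaled by library totals alone it was -1.45, with 0.0382. These were the only passes, 1 of 8 fits that left out a library and 1 of the 7 other alternatives. The adjusted p of Nfkbiz was 0.296 in DESeq2 and 0.0747 in limma-voom. The other 4 members of the family ran from -0.90 for Nfkbid to 0.07 for Nfkbib on the log2 scale. Nfkbib (IκBβ) stood at 12.9, 10.2, 11.9 and 13.8 CPM with water and at 10.2, 12.6, 15.6 and 12.8 CPM with zinc, which overlap. It averaged 12.2 ± 1.54 CPM in the water libraries and 12.8 ± 2.21 CPM in the zinc libraries (SD, n = 4 each), and its log2 fold change turned sign when water replicate 2 or zinc replicate 3 was left out. Bcl3 stood at 16.2, 21.6, 18.4 and 14.9 CPM with water and at 12.3, 12.7, 17.5 and 11.7 CPM with zinc. Zinc replicate 3 lay inside the range of the water group. The log2 fold change of Bcl3 was -0.39 (SE 0.16), and it was 1 of the 13 members with an unadjusted p below 0.05.

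In each of the 5 Rel subunit genes the groups overlapped. Rela (ENSMUSG00000024927, chromosome 19, 5687493 to 5698161, plus strand) stood at 29.8, 24.8, 25.2 and 21.4 CPM with water and at 24.2, 21.7, 24.0 and 20.1 CPM with zinc, which overlap. Its log2 fold change was -0.17, with an SE of 0.13 and an adjusted p of 0.998 in edgeR. Nfkb1 (ENSMUSG00000028163, chromosome 3, 135290264 to 135397742, minus strand) stood at 26.6, 35.7, 33.3 and 34.5 CPM with water and at 26.1, 35.8, 25.2 and 27.6 CPM with zinc, and zinc replicate 2 was the highest of all 8. Its log2 fold change was -0.18, with an SE of 0.14 and an adjusted p of 0.998 in edgeR. Relb stood at 12.0, 13.9, 15.9 and 19.4 CPM with water and at 12.3, 14.4, 11.6 and 14.5 CPM with zinc, with a log2 fold change of -0.22 (SE 0.16). Nfkb2, itself a known target of the pathway, had a log2 fold change of -0.31 (SE 0.14), and Rel, at 0.891 to 2.83 CPM, one of -0.62 (SE 0.36). Leaving out 1 library moved Rela to -0.08 (without water replicate 1), Nfkb1 to -0.31 (without zinc replicate 2) and Relb to -0.09 (without water replicate 4).

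Of the adaptors and kinases, Birc3 and Traf2 had groups that did not overlap on the TMM scale. Birc3 (ENSMUSG00000032000, chromosome 9, 7845790 to 7873229, minus strand) encodes the ubiquitin ligase cIAP2 and is a target of the pathway. It stood at 6.88, 7.17, 9.31 and 9.97 CPM with water and at 3.33, 5.50, 5.33 and 6.71 CPM with zinc. Zinc replicate 4 was just below water replicate 1, and the log2 fold change was -0.67, with an SE of 0.22 and an adjusted p of 0.852 in edgeR. Birc2, its neighbour on chromosome 9, which encodes cIAP1, averaged 14.4 ± 2.59 CPM in the water libraries and 15.5 ± 1.99 CPM in the zinc libraries (SD, n = 4 each), and it differed by 0.11 (SE 0.16) on the log2 scale.

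Traf2 (ENSMUSG00000026942, chromosome 2, 25406097 to 25436987, minus strand), which encodes an adaptor of TNF receptors, stood at 12.3, 10.7, 9.60 and 12.3 CPM with water and at 9.32, 9.37, 7.59 and 9.08 CPM with zinc. The gap between the groups was small, and the log2 fold change was -0.35, with an SE of 0.16 and an adjusted p of 0.998 in edgeR. Traf3, an adaptor that restrains the non-canonical branch, and Ikbke, a kinase related to the IκB kinases, differed by -0.36 (SE 0.16) and -0.37 (SE 0.18) on the log2 scale, with overlapping groups. The kinase gene Map3k8 was at 0.349 to 2.00 CPM. Traf1 had 0 to 4 counts and Cd40, which encodes a receptor of the TNF family, 0 to 2 counts per library.

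Tnfaip3 (ENSMUSG00000019850, chromosome 10, 18874201 to 18891405, minus strand) encodes A20, an enzyme that edits ubiquitin chains and shuts the pathway off. It stood at 5.50, 2.66, 3.89 and 7.26 CPM with water and at 1.13, 2.94, 2.73 and 3.69 CPM with zinc. The groups overlapped through water replicate 2, and the log2 fold change was -0.86, with an SE of 0.35 and an adjusted p of 0.998 in edgeR. Tnip1, which encodes a partner of A20, and Tnfaip2, a gene induced by TNF, differed by -0.50 (SE 0.20) and -1.01 (SE 0.41) on the log2 scale, with overlapping groups. Ier3, an early response gene, was at 0.687 to 2.38 CPM, with a log2 fold change of -0.12 (SE 0.47). Its sign turned without water replicate 1 (0.44) and without zinc replicate 3, in limma-voom (0.09) and with the replicate block.

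The chemokine and cytokine genes were low in level or had no counts. Ccl20 (ENSMUSG00000026166, chromosome 1, 83094487 to 83096888, plus strand), which encodes a chemokine for cells with the receptor CCR6, had 16, 15, 44 and 37 counts with water and 8, 8, 0 and 3 counts with zinc. In CPM the zinc libraries (0 to 0.475) were all below the water libraries (0.644 to 1.86). The log2 fold change was -2.41, with an SE of 0.70 and an adjusted p of 0.547 in edgeR.

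Cxcl16 (ENSMUSG00000018920, chromosome 11, 70344517 to 70352620, minus strand), which encodes a membrane-bound chemokine, stood at 2.38, 0.945, 1.31 and 1.41 CPM with water and at 0.594, 0.386, 0.553 and 0.815 CPM with zinc. The highest zinc library was below the lowest water library, and the log2 fold change was -1.33, with an SE of 0.45 and an adjusted p of 0.866 in edgeR. Cxcl16 overlaps Med11 on the other strand, which had 126 to 253 counts, and no source used here states how the strand was treated in counting. Csf1, which encodes the growth factor of macrophages, was at 0.194 to 2.03 CPM with overlapping groups and a log2 fold change of -1.04 (SE 0.56), which was -0.52 without water replicate 3.

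Tnf (ENSMUSG00000024401, chromosome 17, 35418357 to 35420983, minus strand) was under the filter. It had 8, 21, 15 and 34 counts with water and 0, 0, 3 and 2 counts with zinc. All zinc libraries of Tnf were below all water libraries in CPM (0 to 0.119 against 0.5004 to 1.30). Without a low-count filter its edgeR adjusted p was 0.0138. It passed the filter in 5 of the fits that left out a library, where its edgeR adjusted p ran from 0.0912 to 0.5. C1qa, the macrophage marker above, was at a like level of counts and also lower with zinc by its mean CPM, with overlapping groups. It had no counts in water replicate 4, where Tnf was highest, and the macrophage markers C1qb and C1qc had almost none in any library. The part of C1qa in the Tnf values was not tested. Ltb, which encodes lymphotoxin β, had 0 to 5 counts per library.

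Icam1 (ENSMUSG00000037405, chromosome 9, 20926672 to 20940113, plus strand) encodes an adhesion molecule that leukocytes bind. It had 10, 15, 30 and 31 counts with water and 3, 2, 5 and 1 counts with zinc, or 0.625 to 1.27 CPM against 0.0388 to 0.198 CPM. The groups did not overlap. Its log2 fold change was -2.85, with an SE of 0.63 and an adjusted p of 0.179 in edgeR, and it was the member with the smallest unadjusted p (0.000299). DESeq2 gave it an adjusted p of 0.021, and over the 8 fits that left out a library the edgeR adjusted p ran from 0.159 to 0.823. At 1 to 31 counts per library the size of the difference was poorly fixed.

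Sod2 (ENSMUSG00000006818, chromosome 17, 13224095 to 13259591, plus strand), which encodes the manganese superoxide dismutase of mitochondria, was the member closest to no difference. It stood at 43.5, 41.6, 33.0 and 36.7 CPM with water and at 40.2, 36.8, 38.5 and 37.2 CPM with zinc. The log2 fold change was -0.02, with an SE of 0.11 and an adjusted p of 0.998 in edgeR. Its sign turned when water replicate 1 or water replicate 2 was left out.

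Lcn2, which encodes lipocalin 2, a protein that keeps iron from bacteria, had 6, 16, 13 and 27 counts with water and 0, 0, 4 and 6 counts with zinc. In CPM the zinc libraries (0 to 0.233) were below the water libraries (0.375 to 1.03). With Tnf and the 6 tested members above, this made 8 of 35 detected members whose groups did not overlap, all lower with zinc. Of the tested members alone it was 6 of 27, where 1.59% of tested genes were lower and 1.24% higher in this way. For genes under the filter, such as Tnf and Lcn2, no such share was counted. These statements hold on the TMM scale. By library totals alone the groups of Nfkbia, Birc3, Traf2 and Cxcl16 overlapped, and no share of tested genes was counted on that scale. Of the 6 tested members, Icam1 and Ccl20 had 0 zinc libraries over the filter and Cxcl16 had 2. Each of these had 4 water libraries over it and so passed through the water group.

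The serum amyloid genes Saa1, Saa2 and Saa3 came from a single library. Water replicate 4 had 103, 71 and 19 counts of them, and each of the other 7 libraries had 0 to 2. Saa1 and Saa2 are near-identical copies, and no source used here states how their shared reads were counted. Water replicate 4 was also highest in Tnf, Lcn2, Tnfaip3 and Tnfaip2, and in Ptprc, whose part in this was not tested. Plaur, which encodes the urokinase receptor, was at 0.193 to 2.13 CPM and highest in zinc replicate 4, with a log2 fold change of 0.43 (SE 0.69). Without that library it was -0.61.

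**Figure D4:**
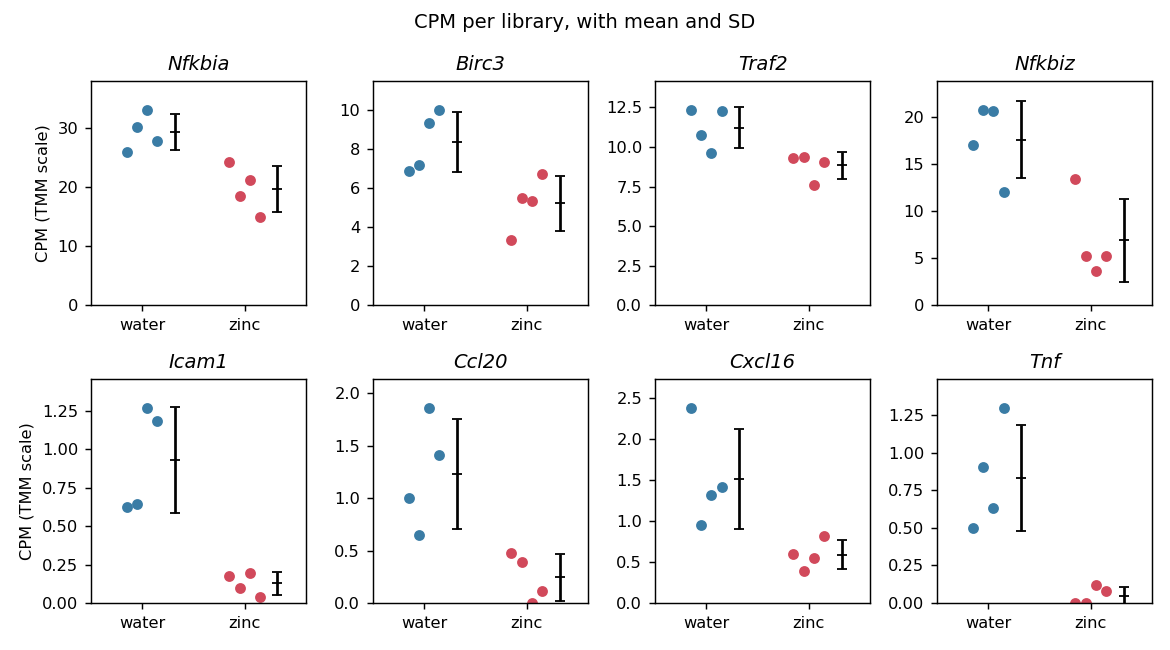
CPM per library of the 6 tested members whose groups do not overlap, with Nfkbiz and Tnf, each from an axis starting at 0. Points are libraries in the order of their replicate numbers, and bars are the mean and SD of 4 libraries (cut at 0 for Tnf). In every panel but that of Nfkbiz all zinc points lie below all water points.

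The members with a κB match and those without it were set side by side. The 11 tested members with a match to the consensus had a median log2 fold change of -0.62 and the 16 without one a median of -0.35. Icam1 and Ccl20, which are among the 11, had 0 zinc libraries over the filter and so passed it through the water group. The list was drawn up with results of this comparison known, and the gap between the medians was not tested. Over all tested genes the medians were -0.00 for the 1618 with a match and 0.01 for the 10358 without one. Nfkbiz, Birc3, Cxcl16 and Tnf were lower by mean CPM without a match, and Cxcl1 and Cxcl2 had no counts with one.

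The other genes of the pathway come from a pair of lists that hold no member. Both lists were drawn up with earlier results of these data known, so their counts are a description. Of 38 genes upstream of NF-κB (receptors, adaptors, IκB kinases, ubiquitin ligases and their partners), 36 were tested and 0 passed the threshold in edgeR, DESeq2 or limma-voom. In edgeR 1 had an unadjusted p below 0.05, where 4.65% of all tested genes had one and 0.0834% passed the threshold. Log2 fold changes of the 36 ran from -0.36 to 0.40 with a median of -0.02. The kinase subunit gene Chuk (IKKα) averaged 31.8 ± 4.88 CPM in the water libraries and 31.3 ± 4.97 CPM in the zinc libraries, Ikbkb (IKKβ) at 12.6 ± 2.65 and 10.9 ± 1.21 CPM, and Ikbkg (NEMO) at 16.4 ± 0.579 and 17.6 ± 1.79 CPM (SD, n = 4 each). The smallest p was that of Tradd, which encodes an adaptor of the TNF receptor TNFR1, at 8.76, 9.97, 8.63 and 8.59 CPM with water and 13.5, 10.6, 12.7 and 10.7 CPM with zinc. Its zinc libraries were all above its water libraries, with a log2 fold change of 0.40, with an SE of 0.15 and an adjusted p of 0.998 in edgeR. In the opposite direction Tab3, which encodes a partner of the kinase TAK1 and was chosen after its values were seen, ran from 7.14 to 8.25 CPM with water and from 5.26 to 7.03 CPM with zinc.

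Of 32 other known targets, 15 were tested and 11 of these had a log2 fold change below 0, as had 48.1% of all tested genes. The median of the 15 was -0.19. This list too was drawn up with earlier results known, so its counts are a description. There were 9 with 0 counts in every library, among them Il6, Ccl2 and Vcam1. A single one passed the threshold, as did 0.0834% of all tested genes. It was Zc3h12a, which encodes Regnase-1, an enzyme that degrades cytokine mRNAs. Zc3h12a had the smallest unadjusted p of all tested genes (1.8e-07 in edgeR). It stood at 15.8, 17.4, 18.6 and 13.8 CPM with water and at 6.77, 7.00, 5.45 and 7.10 CPM with zinc. It fell by 1.32 on the log2 scale, with an SE of 0.16 and an adjusted p of 0.00216 in edgeR, and was past the threshold in every alternative fit.

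**Figure D5:**
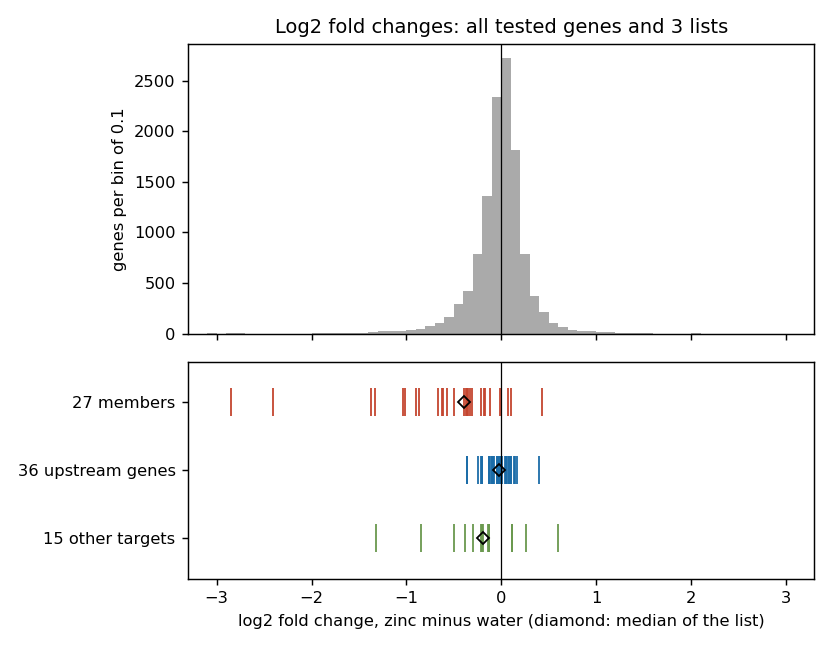
Log2 fold change, zinc minus water, on the horizontal axis of both panels. The upper panel counts tested genes per bin of 0.1, and the lower panel has a tick for each tested gene of 3 lists, with diamonds at the medians of -0.39 for the 27 members, -0.02 for 36 upstream genes and -0.19 for 15 other targets. The members were listed with results of this comparison known.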

How the data were processed

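RNA was measured in 8 libraries. The values are raw counts per gene, as deposited. Per the submitters' processing notes, FastQC 0.12.0, STAR 2.7.0a, DESeq2 and mm39 were used. For the counting program, its strand setting and reads with several matches, nothing is given in the sources used here. There were 0 columns of other samples. Symbols came from GENCODE M39 (54749 of 55414 IDs matched).

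Counts were fitted on all genes with edgeR 4.0.16 (TMM, filterByExpr with a minimum count of 10, robust quasi-likelihood, treatment only), with Benjamini-Hochberg adjustment over 11988 genes and a threshold of 0.05. Alternatives were DESeq2 1.42.0, limma-voom 3.58.1, other scalings and filters, a replicate block and leaving out each library. All replicates differed beyond sampling noise. Members and lists were chosen with earlier results of these data known. Genes named with values in full were 6 core genes, the 6 highest in level per kilobase, the tested members whose groups did not overlap and the 5 with the smallest p, and of the other pathway lists the gene with the smallest p and any past the threshold. Other genes with values were chosen after their values were seen.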

Additional observations from a re-analysis of the deposited data

Results flagged for a closer look

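In 28 groups of 4 libraries (14 members, water and zinc), the gap between the most extreme library and its neighbour was compared with the range of the group by Dixon's criterion (critical value 0.829), which chance exceeds in about 1 in 20 groups. Nfkbiz in zinc replicate 1 stood at 13.4 CPM, while the remaining 3 zinc libraries ran from 3.63 to 5.26 CPM, a share of 0.834. Traf2 in zinc replicate 3 stood at 7.59 CPM, while the remaining 3 ran from 9.08 to 9.37 CPM, a share of 0.837.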

How the results depend on the processing

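The number of members past the threshold and lower with zinc was 0 in edgeR, 1 with library totals only (Nfkbiz), 3 of 35 without a low-count filter (Nfkbia, Tnf and Saa2, of which water replicate 4 held 71 counts), 1 in DESeq2 (Icam1), and 0 to 1 when a library was left out (Nfkbiz without zinc replicate 1). The median log2 fold change of the members was -0.39, -0.61 without a filter and -0.61 to -0.40 over the fits that left out a library. Over all genes, 3 higher and 7 lower calls became 11 and 55 without a filter, 8 and 26 in DESeq2, 6 and 26 with the replicate block, and 0 to 5 and 1 to 12 when a library was left out. Nfkbib turned to -0.0134 without water replicate 2 and -0.0464 without zinc replicate 3, and Sod2 to 0.0395 without water replicate 1 and 0.0113 without water replicate 2. Over the fits that left out a library Nfkbib ran from -0.0464 to 0.1614 and Sod2 from -0.0936 to 0.0395. The cause was not tested. Of the other members, Plaur turned to -0.6126 without zinc replicate 4, and Ier3 to 0.4427 without water replicate 1, 0.0145 without zinc replicate 3, 0.0916 in limma-voom and 0.0152 with the replicate block. With the replicate block 0 members passed the threshold (Nfkbia had an adjusted p of 0.0685), and 14 had an unadjusted p below 0.05, as did 937 of all 11988 tested genes against 558 without it. Deviations of libraries with the same number correlated at 0.275, 0.022, 0.132 and 0.311 over 11988 genes, and pairing was taken only where every pair exceeded 0.1, which replicate 2 did not. As a hint from the data and not the design, 3 of 4 libraries of each group correlated best with their own number, and TMM factors were alike by number (0.764 and 0.775, 1.02 and 0.998, 1.07 and 1.05, 1.21 and 1.23). Members under about 1 CPM rest on few counts.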
